A study of Bos taurus with 6 samples.

Results

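Proteins are marked for destruction by chains of ubiquitin. An E1 enzyme activates ubiquitin, an E2 conjugating enzyme carries it and an E3 ligase attaches it. The 26S proteasome, a barrel of alpha and beta subunits (the 20S core) capped by a regulatory particle (19S), unfolds and cuts the marked proteins, and deubiquitinases of the USP family remove or trim the chains. In early embryos this system is known for clearing stored maternal proteins and for driving the cell cycle. The genes described here were chosen by symbol alone: PSMA, PSMB, PSMC, PSMD, PSME and PSMG genes form the proteasome class, UBE2 genes the E2 class, and USP genes followed by a digit the deubiquitinase class, without USP9X and USP9Y. They number 108 of the 13896 annotated gene symbols in the files, with 45 in the proteasome class, 32 in the E2 class and 31 in the USP class.

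The libraries were made from individual bovine morulae from in vitro fertilization, 3 per group. MAT2A-inhibited embryos were kept from the 8 to 16 cell stage, 72 h after insemination (day 3), in 20 µM FIDAS-5, an inhibitor of the enzyme that makes S-adenosylmethionine, until 144 h (day 6). Control morulae received 0.1% DMSO, the solvent of FIDAS-5, over the same time, and all were held at 5% oxygen in semi-defined medium with bovine serum albumin. Each library came from polyA RNA by a full-length low-input kit, expression is in FPKM (fragments per kilobase of transcript, scaled to the mapped fragments of the library), and the depth recovered from the files was 46400000 to 59900000 fragments per library. In these bulk embryos, fewer cells of a type and less RNA per cell cannot be told apart, and p-values measure the spread between embryos that may share a culture.

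MAT2A itself was at 91.4, 53.2 and 70.5 FPKM in MAT2A-inhibited embryos and at 74.8, 79.2 and 74.2 FPKM in controls (exact two-sided permutation p = 0.7, where 0.1 is the smallest that 3 against 3 can give), and a transcript level does not check the action of a catalytic inhibitor. POU5F1, a pluripotency factor of morulae, was at 254.8 to 376.4 FPKM in MAT2A-inhibited embryos and 312.3 to 431.0 FPKM in controls. SOX2 was at 45.2 to 50.8 FPKM in MAT2A-inhibited embryos and 27.6 to 41.5 FPKM in controls. NANOG was at 1.16 to 1.88 FPKM in MAT2A-inhibited embryos and 2.54 to 20.3 FPKM in controls. The groups did not overlap for SOX2, which was higher in MAT2A-inhibited embryos, or for NANOG, which was lower (limma adjusted p = 0.746 for each). DPPA3, a maternal germline factor, was at 453.5 to 574.5 FPKM in MAT2A-inhibited embryos and 660.9 to 881.3 FPKM in controls, without overlap (limma adjusted p = 0.701). The trophectoderm genes overlapped between groups: CDX2 was at 0.188 to 2.56 FPKM in MAT2A-inhibited embryos and 0.276 to 2.77 FPKM in controls, GATA3 at 15.5 to 33.9 FPKM in MAT2A-inhibited embryos and 6.50 to 83.4 FPKM in controls, and KRT8 at 38.7 to 229.9 FPKM in MAT2A-inhibited embryos and 4.49 to 400.5 FPKM in controls. MAT2B, the regulatory subunit of the enzyme, was at 61.0 to 76.6 FPKM in MAT2A-inhibited embryos and 75.1 to 88.4 FPKM in controls. Markers of cumulus cells (COL1A2, STAR, DCN, LUM and VIM) summed to 2.56 to 2.84 FPKM in MAT2A-inhibited embryos and 6.14 to 17.7 FPKM in controls, with VIM at 0 in all 3 MAT2A-inhibited libraries and in control 3. The blood genes HBA and HBB summed to 81.9 to 109.8 FPKM in MAT2A-inhibited embryos and 63.1 to 132.4 FPKM in controls. The sperm genes PRM1, TNP1 and TNP2 summed to 5.13 to 11.45 FPKM in MAT2A-inhibited embryos and 2.53 to 4.79 FPKM in controls. Of 5 Y-linked genes listed, 2 were among the symbols used, DDX3Y and EIF1AY, and the loci given for both are on chromosome X. They summed to 53.2 and 114.9 FPKM in MAT2A-inhibited embryos 2 and 3. Both were listed at 0 in the other 4 libraries, which include all controls. The part of these markers in the results was not tested, except where values without MAT2A-inhibited embryos 2 and 3 are given.

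The 3 classes stood at different levels in every embryo. The median proteasome gene was at 145.6, 178.1 and 144.6 FPKM in MAT2A-inhibited embryos 1 to 3 and at 146.3, 169.7 and 162.5 FPKM in controls 1 to 3. The median E2 gene was at 47.8, 41.04 and 42.0 FPKM in MAT2A-inhibited embryos and 41.3, 43.9 and 52.2 FPKM in controls. The median USP gene was at 5.39, 5.44 and 7.40 FPKM in MAT2A-inhibited embryos, against 6.20, 5.88 and 6.05 FPKM in controls. Proteasome genes thus lay 3.04 to 4.34 times above E2 genes, and E2 genes 5.67 to 8.88 times above USP genes, within a library. FPKM is a level per transcript length, so genes of a library can be set side by side. The class medians include weakly expressed members that were not tested, and the median of all 13185 symbols used was 1.47 to 1.90 FPKM. The median of the 7319 genes tested, without such weak genes, was 11.3 to 13.0 FPKM. In all, 28 of 43 proteasome genes with a value in every library averaged 100 FPKM or more, as did 10 of 29 E2 genes and 1 of 29 USP genes, USP15. The same 43 proteasome genes, which leave out PSMA4 and PSMC6, made up 1.40% to 1.65% of the FPKM of annotated genes in MAT2A-inhibited embryos. In controls their share was 1.45% to 1.54%.

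**Figure D1:**
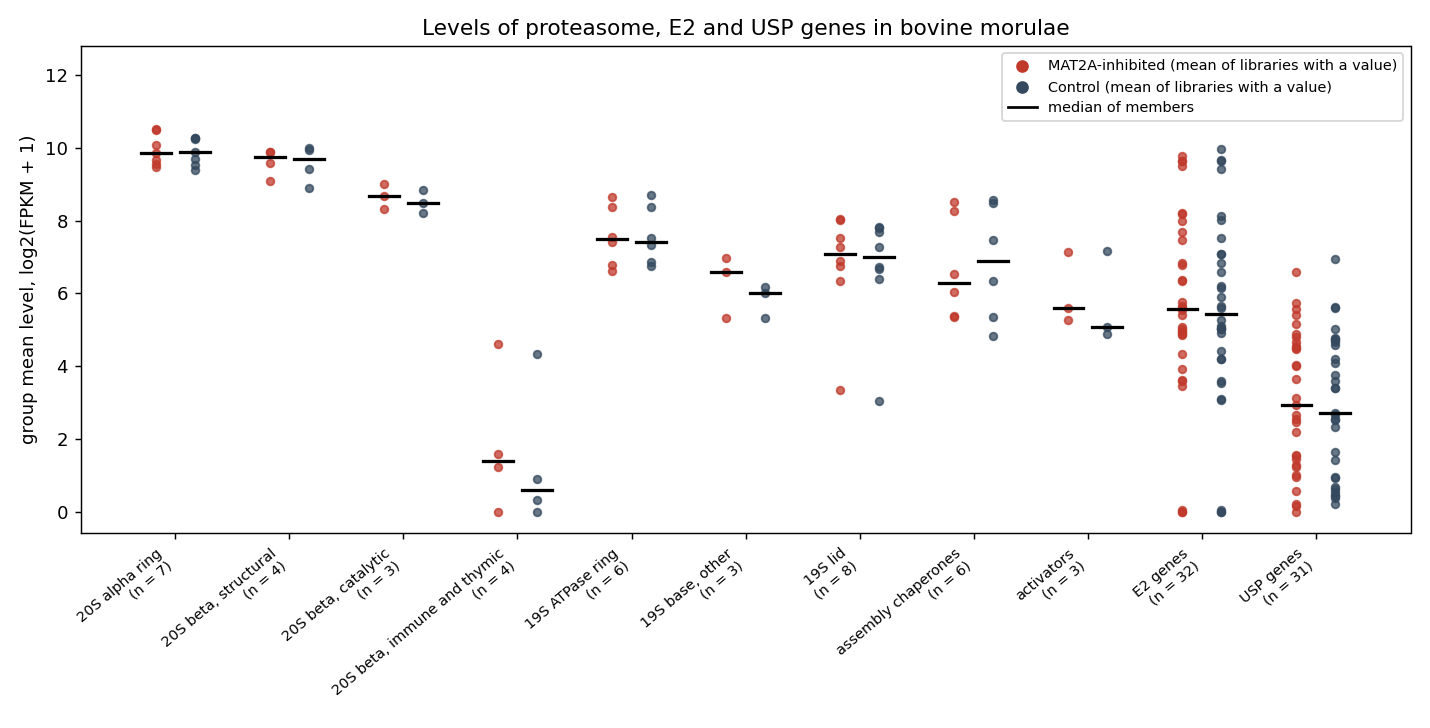
Mean level of each proteasome, E2 and USP gene in MAT2A-inhibited embryos (red) and controls (dark), on a log2(FPKM + 1) axis, grouped by role, with the median of each group as a bar; PSMC3IP, no subunit, is not drawn. Among the groups drawn, the alpha ring and the non-catalytic beta subunits have the highest medians, the immune and thymic subunits the lowest, with PSMB9 above the rest of them, and the median of the USP class lies below that of the E2 class.

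Within the proteasome, the alpha ring genes with a value in every library stood above every gene of the regulatory particle, while the catalytic beta genes overlapped PSMC2 and PSMC6 of its ATPase ring. The alpha ring forms the gated ends of the barrel. Its 6 subunit genes with a value in every library lay between 632.3 and 1632 FPKM over all embryos. PSMA3 was at 1283, 1613 and 1460.2 FPKM in MAT2A-inhibited embryos and 1084, 1295 and 1264 FPKM in controls, and PSMA2 was at 1256, 1437 and 1632 FPKM in MAT2A-inhibited embryos and 1329, 911.3 and 1479 FPKM in controls. For both, the groups overlapped. PSMA6 was at 965.8, 1277 and 982.7 FPKM in MAT2A-inhibited embryos and 1129, 1516 and 1074.7 FPKM in controls. PSMA4 shared a merged locus with HYKK in MAT2A-inhibited embryo 1 and was at 728.1 and 695.6 FPKM in MAT2A-inhibited embryos 2 and 3, against 576.7, 635.7 and 816.2 FPKM in controls. The non-catalytic beta subunits PSMB1 and PSMB2 were close to the alpha ring, at 875.7 to 1057 and 855.2 to 1103 FPKM in MAT2A-inhibited embryos and 937.5 to 1080.4 and 912.5 to 1091 FPKM in controls.

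The catalytic beta subunits, whose N-terminal threonines cut the substrate, stood below PSMB1, PSMB2 and PSMB3 in every embryo, while PSMB4, another non-catalytic subunit at 502.9 to 577.4 FPKM in MAT2A-inhibited embryos and 440.9 to 492.4 FPKM in controls, overlapped PSMB6. PSMB5 (chymotrypsin-like activity) was at 259.7, 326.2 and 367.2 FPKM in MAT2A-inhibited embryos and 345.4, 429.8 and 304.3 FPKM in controls. PSMB6 (caspase-like) was at 407.3, 550.4 and 585.9 FPKM in MAT2A-inhibited embryos and 426.05, 487.5 and 449.0 FPKM in controls. PSMB7 (trypsin-like) was at 272.8, 447.4 and 499.8 FPKM in MAT2A-inhibited embryos and 287.3, 279.1 and 320.7 FPKM in controls. MAT2A-inhibited embryos 2 and 3 exceeded every control for PSMB6 and PSMB7, and MAT2A-inhibited embryo 1 lay below every control. None of the 3 passed (log2 fold changes -0.18, 0.16 and 0.41, limma adjusted p 0.855, 0.855 and 0.782). The fold changes of PSMB6 and PSMB7 were -0.16 and -0.11 without MAT2A-inhibited embryos 2 and 3, which leaves MAT2A-inhibited embryo 1 alone against the controls. With 1 library left out at a time, PSMB5 ran from -0.29 (without control 3 or without MAT2A-inhibited embryo 3) to -0.041 (without MAT2A-inhibited embryo 1), and it was -0.044 without control 2. PSMB6 ran from 0.062 (without MAT2A-inhibited embryo 3) to 0.32 (without MAT2A-inhibited embryo 1), and it was 0.107 without MAT2A-inhibited embryo 2. PSMB7 ran from 0.24 to 0.68 under the same omissions of MAT2A-inhibited embryos 3 and 1.

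The interferon-inducible subunits, which replace the catalytic ones in the immunoproteasome, were scarce in both groups. PSMB9 was the exception, at 33.02, 23.3 and 13.8 FPKM in MAT2A-inhibited embryos and 16.9, 25.3 and 15.5 FPKM in controls. This was 2.36% to 8.11% of its constitutive counterpart PSMB6 in MAT2A-inhibited embryos and 3.45% to 5.19% in controls. PSMB10 was at 2.63, 2.26 and 1.07 FPKM in MAT2A-inhibited embryos and 1.43, 0.331 and 0.786 FPKM in controls, at most 0.965% of PSMB7. PSMB8 reached 2.79 FPKM in MAT2A-inhibited embryo 2 and at most 0.627 FPKM in controls, at most 0.855% of PSMB5. PSMB11, the thymic catalytic subunit, was listed at 0 in all 6 libraries.

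The regulatory particle recognises, unfolds and feeds in the substrate. Its ATPase ring ran from PSMC3, at 80.2, 100.3 and 110.8 FPKM in MAT2A-inhibited embryos and 89.5, 131.4 and 98.06 FPKM in controls, up to PSMC2, at 308.5, 529.0 and 354.8 FPKM in MAT2A-inhibited embryos and 417.4, 471.9 and 350.3 FPKM in controls. Each group overlapped the other for all 5 ATPases tested, whose log2 fold changes lay between -0.12 and 0.20. PSMC6 shared a merged locus with STYX in MAT2A-inhibited embryo 3, and was at 310.3 and 356.2 FPKM in MAT2A-inhibited embryos 1 and 2 and at 294.1 to 367.7 FPKM in controls. PSMD14, the deubiquitinase of the lid, was at 213.6, 302.3 and 261.2 FPKM in MAT2A-inhibited embryos and 216.6, 233.6 and 218.8 FPKM in controls. PSMD4, a ubiquitin receptor, was lower at 42.7, 36.3 and 37.7 FPKM in MAT2A-inhibited embryos and 47.5, 40.2 and 30.01 FPKM in controls. PSMD3, another lid subunit, was the lowest of the particle, at 7.03 to 10.3 FPKM in MAT2A-inhibited embryos and 5.05 to 8.64 FPKM in controls. PSMD2, the large scaffold subunit, varied most among the subunits of the particle, at 131.4, 191.3 and 49.6 FPKM in MAT2A-inhibited embryos and 94.7, 54.5 and 41.0 FPKM in controls.

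Activators were less even than the alpha ring, at a median of 5.21 times from the lowest to the highest embryo against 1.53 times. The 6 assembly chaperones ran from 1.28 to 3.39 times, with a median of 1.89 times. PSME1 and PSME2, which form the PA28 cap of the core and lie next to each other on chromosome 10 (20838545 to 20849410 in the bosTau8 loci of control 1), varied widely between embryos. PSME1 was at 99.7, 162.0 and 155.7 FPKM in MAT2A-inhibited embryos and 49.2, 52.8 and 323.7 FPKM in controls. PSME2 was at 43.4, 43.8 and 54.8 FPKM in MAT2A-inhibited embryos and 40.3, 12.9 and 45.3 FPKM in controls. Control 3 held the highest PSME1 value and control 2 the lowest PSME2 value, so the spread within controls covered the MAT2A-inhibited embryos for PSME1. PSME4, the PA200 activator, was at 15.5, 80.7 and 15.9 FPKM in MAT2A-inhibited embryos and 32.1, 21.06 and 33.01 FPKM in controls. PSMD5, a chaperone of the regulatory particle, was at 34.5, 51.3 and 33.9 FPKM in MAT2A-inhibited embryos and 24.6, 24.1 and 33.8 FPKM in controls. Its groups were without overlap only by a narrow margin (log2 fold change 0.51 ± 0.27 SE, limma adjusted p = 0.772). PSMC3IP carries the prefix but is a partner of meiotic recombinases and no subunit, and it was at 35.2, 43.9 and 32.7 FPKM in MAT2A-inhibited embryos and 38.9, 25.3 and 33.2 FPKM in controls.

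Among E2 genes UBE2C, which works with the anaphase-promoting complex at mitotic exit, was at 880.9, 899.2 and 862.5 FPKM in MAT2A-inhibited embryos and 1059.5, 1054 and 912.9 FPKM in controls. Every MAT2A-inhibited embryo lay below every control (log2 fold change -0.19 ± 0.15 SE, limma adjusted p = 0.812). UBE2S, which extends the chains that UBE2C starts, shared a merged locus with PPP6R1 in MAT2A-inhibited embryo 2. It was at 189.6 and 159.3 FPKM in MAT2A-inhibited embryos 1 and 3 and at 137.3, 119.7 and 147.2 FPKM in controls. UBE2L3, an E2 for RBR and HECT ligases, was at 506.7, 907.8 and 971.3 FPKM in MAT2A-inhibited embryos and 903.5, 766.1 and 724.1 FPKM in controls. UBE2V2, a catalytically inactive partner of UBE2N, was at 598.9, 1198 and 607.5 FPKM in MAT2A-inhibited embryos and 902.6, 759.6 and 766.9 FPKM in controls. UBE2N itself, which makes non-degradative chains, was at 347.0, 315.2 and 230.3 FPKM in MAT2A-inhibited embryos and 249.1, 235.2 and 295.1 FPKM in controls, below UBE2V2 in every embryo.

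The closely related UBE2D enzymes, which serve many ligases, were expressed unequally. UBE2D3 was at 551.7, 864.4 and 757.7 FPKM in MAT2A-inhibited embryos and 706.3, 693.9 and 658.5 FPKM in controls. UBE2D2 was at 30.5, 26.9 and 33.3 FPKM in MAT2A-inhibited embryos and 16.6, 13.4 and 31.2 FPKM in controls, and UBE2D1 was at 11.4, 7.22 and 14.9 FPKM in MAT2A-inhibited embryos and 7.87, 9.03 and 16.03 FPKM in controls. UBE2D3 is the sum of 3 loci, on chromosomes 6 (2 loci) and 9 (1 locus), and reads of near-identical copies may be divided among them, so these levels are uncertain. UBE2L6, the E2 of the interferon-induced modifier ISG15, was at most 0.105 FPKM in MAT2A-inhibited embryos and 0.0948 FPKM in controls. UBE2U and UBE2Z were listed at 0 in all 6 libraries. Of the E2 enzymes of endoplasmic reticulum degradation, UBE2J1 was at 10.1, 25.6 and 21.9 FPKM in MAT2A-inhibited embryos and 25.1, 15.7 and 11.3 FPKM in controls. UBE2G2 was at 59.2, 421.6 and 275.5 FPKM in MAT2A-inhibited embryos and 249.6, 45.8 and 249.0 FPKM in controls, with 1 low embryo in each group.

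USP genes were expressed at lower levels, led by USP15, which acts in TGF-beta signalling. USP15 was at 128.7, 73.9 and 84.3 FPKM in MAT2A-inhibited embryos and 119.2, 146.7 and 101.9 FPKM in controls. USP16, a histone H2A deubiquitinase, was at 55.9, 50.8 and 50.9 FPKM in MAT2A-inhibited embryos and 45.7, 55.3 and 43.4 FPKM in controls. USP8, of endosomal sorting, was at 44.5, 42.7 and 36.1 FPKM in MAT2A-inhibited embryos and 47.3, 52.5 and 42.7 FPKM in controls. USP39, a splicing factor with no known peptidase activity, differed widely within both groups, at 75.8, 11.2 and 51.6 FPKM in MAT2A-inhibited embryos and 39.0, 20.05 and 17.3 FPKM in controls. USP14, which binds the proteasome and trims chains there, was at 25.1, 17.6 and 38.08 FPKM in MAT2A-inhibited embryos and 18.9, 13.8 and 19.6 FPKM in controls, with overlapping groups. USP6NL fits the symbol rule but encodes a Rab GTPase-activating protein, and it was at 19.6 to 24.3 FPKM in MAT2A-inhibited embryos and 22.98 to 24.9 FPKM in controls. USP18, which removes ISG15, was listed at 0 in all MAT2A-inhibited embryos and was at 0.940, 0.429 and 0 FPKM in controls. PSME3 and USP7 were not analysed here.

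Treatment was compared gene by gene with limma on log2(FPKM + 1) over all genes that reached 1 FPKM in 3 libraries or more, with Benjamini-Hochberg adjustment. Fold changes subtract the control mean from that of MAT2A-inhibited embryos, and the added 1 FPKM makes them too small for weakly expressed genes. Of the 108 members, 101 had a value of their own and a good status in every library, and 92 passed this filter, with 41 proteasome, 26 E2 and 25 USP genes. The 9 that did not were PSMB8, PSMB11, UBE2L6, UBE2U, UBE2Z, USP13, USP18, USP20 and USP27X. The 7 without a usable value in every library included PSMA4, PSMC6, UBE2Q2, UBE2S, USP4 and USP45.

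No member passed in either direction, and the lowest limma adjusted p was 0.701. Among all genes tested 0.041% passed, 0.0273% as higher and 0.0137% as lower, so a count of 0 lies near the background. At an unadjusted p below 0.05, 3 members were higher and 2 lower, or 5.43% of the 92 against 6.64% of all genes tested (3.7% higher and 2.94% lower). The groups did not overlap for 12 members, 8 higher and 4 lower, or 13.0% against 13.4% of all genes tested (8.27% higher and 5.18% lower). By class this held for 4 of 41 proteasome genes, 5 of 26 E2 genes and 3 of 25 USP genes. An adjusted p that misses the threshold does not show that a gene did not differ, and the standard error had a median of 0.22 for proteasome, 0.27 for E2 and 0.29 for USP genes.

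The median log2 fold change was 0.014 for proteasome genes, 0.13 for E2 genes and 0.13 for USP genes, beside 0.045 for all genes tested. Of the proteasome genes 24 were above 0 and 17 below. Of the E2 genes 19 were above 0 and 7 below, and of the USP genes 16 and 9, where 54.2% of all genes tested were above 0. With median-of-ratios scaling the median was -0.044 for proteasome, 0.073 for E2 and 0.095 for USP genes, beside -0.006 for all genes tested. Fold changes within 0.5 of 0 were found for 35 of 41 proteasome genes (85.4%), 19 of 26 E2 genes (73.1%) and 18 of 25 USP genes (72.0%), beside 74.6% of all genes tested. Among all tested genes with a mean of at least 100 FPKM, a level that 28 of the 41 proteasome genes reached, the share was 85.7%.

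By embryo, MAT2A-inhibited embryo 2 stood apart for the proteasome. Its median proteasome gene lay 0.24 (log2) over the mean of the controls, with 31 of 41 genes above it, while MAT2A-inhibited embryos 1 and 3 were at -0.066 and 0.008 and controls 1 to 3 at -0.019, 0.023 and -0.056. All 6 alpha ring genes and all 4 non-catalytic beta genes tested were above the control mean in that embryo. Each control is part of the mean it is compared with, which draws control shifts toward that mean, so the spreads of the groups are not alike. For E2 genes the shifts were 0.058, 0.30 and 0.19 in MAT2A-inhibited embryos and -0.001, -0.072 and -0.038 in controls. For USP genes they were 0.12, 0.032 and 0.005 in MAT2A-inhibited embryos and -0.002, -0.027 and -0.066 in controls. The median of all genes tested was likewise above in the MAT2A-inhibited embryos, at 0.060, 0.043 and 0.036, against 0.016, -0.039 and 0.021 in controls. MAT2A-inhibited embryo 2 also had the lowest depth, 46400000 fragments, and its part in the result was not tested. Without it the E2 median log2 fold change was 0.048. With 1 library left out at a time, whichever it was, the proteasome median was 0.039 to 0.086.

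**Figure D2:**
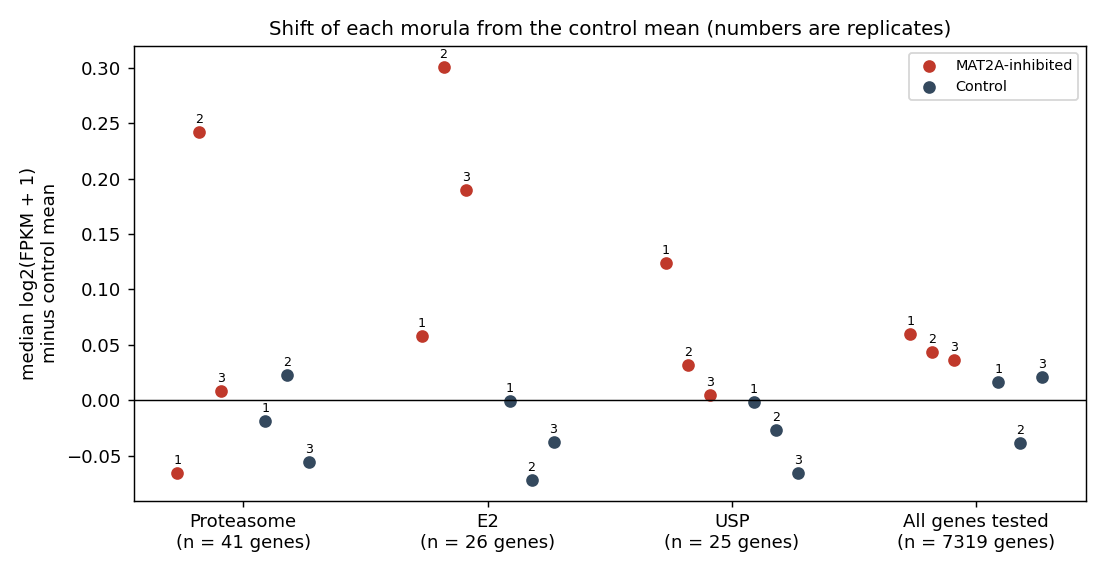
Median of log2(FPKM + 1) minus the control mean for each morula, over the tested genes of each class and over all genes tested; MAT2A-inhibited embryos are red and left, controls dark and right, and the numbers are replicates. MAT2A-inhibited embryo 2 lies highest for proteasome genes at 0.24 and for E2 genes at 0.30. Each control is part of the mean subtracted, which draws the controls toward that mean.

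**Figure D3:**
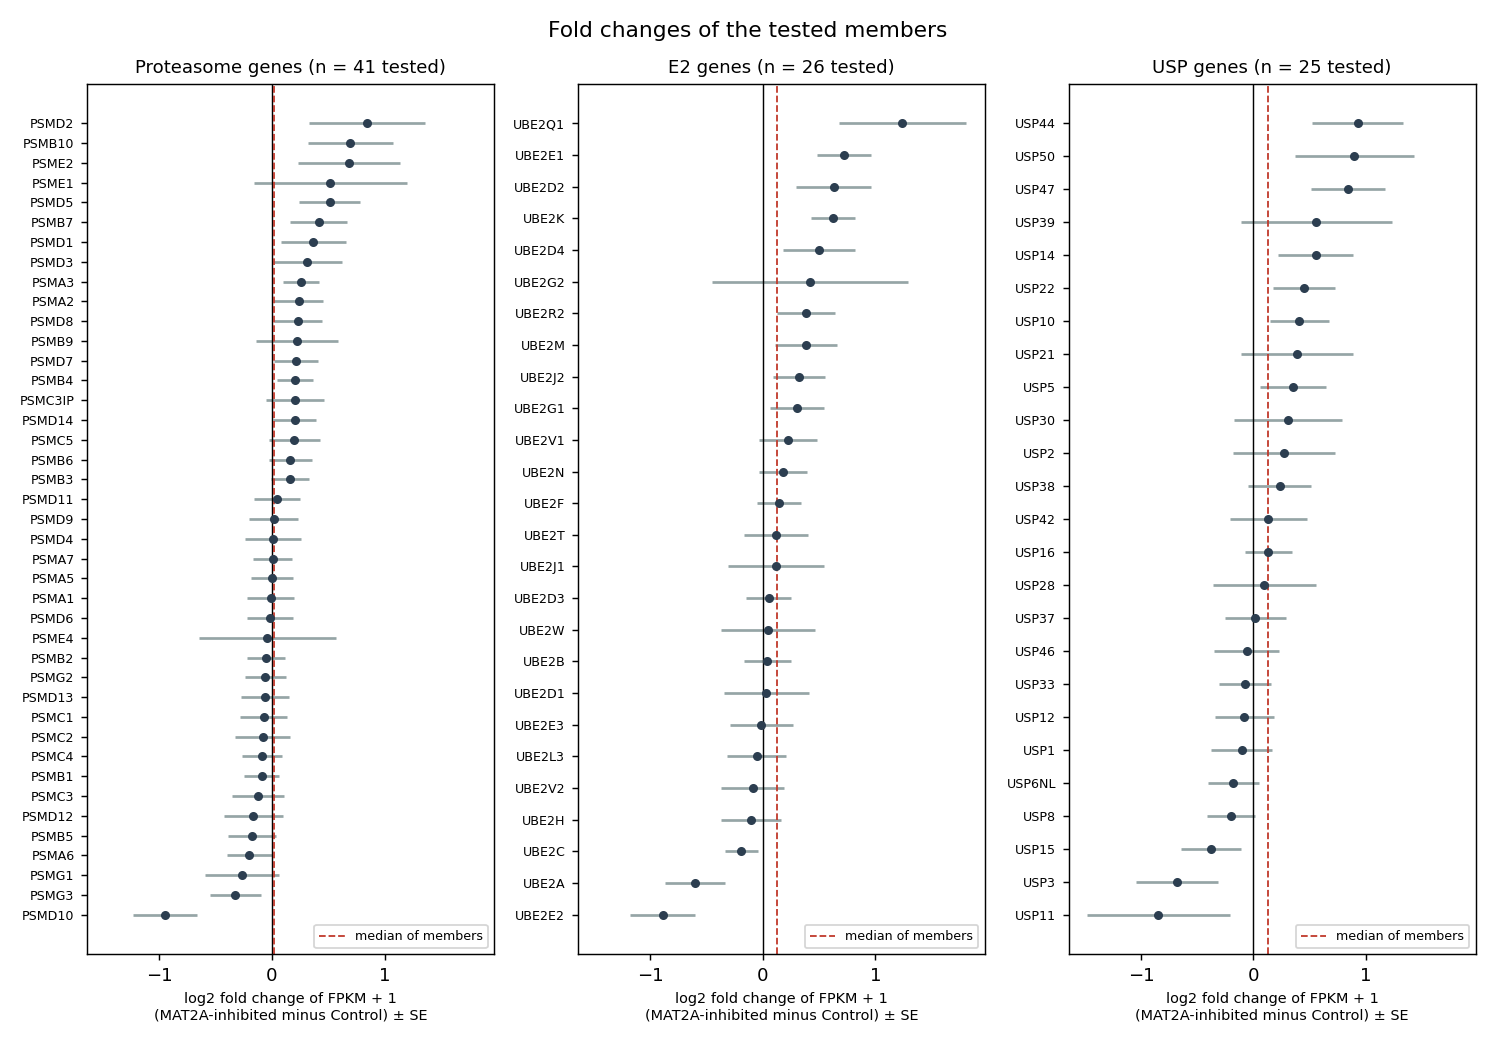
Log2 fold change (MAT2A-inhibited minus Control, FPKM + 1) with its SE for each of the 92 tested members, sorted within class, with the class median as a dashed line. Most proteasome genes sit within 0.5 of 0, PSMD10 is lowest at -0.95 and UBE2Q1 highest at 1.24.

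PSMD10 had the smallest p of the proteasome class. It encodes gankyrin, a chaperone that binds the ATPase ring during assembly, and lies on chromosome X (60964010 to 60973520). It was at 120.4, 64.8 and 88.3 FPKM in MAT2A-inhibited embryos and 146.3, 156.9 and 219.6 FPKM in controls. All 3 MAT2A-inhibited embryos lay below all controls (log2 fold change -0.95 ± 0.28 SE, limma adjusted p = 0.701). The lower pair of values was in the embryos with Y-linked transcripts, and without them the log2 fold change was -0.51. Over all 243 tested genes of chromosome X the median log2 fold change was -0.47, with 206 below 0. Without those embryos the median was 0.006, over 238 genes. Both values without those embryos rest on MAT2A-inhibited embryo 1 alone against the 3 controls.

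The X-linked E2 gene UBE2A, which ubiquitinates histone H2B and the replication clamp, also had its lowest values in MAT2A-inhibited embryos 2 and 3. UBE2A was at 56.2, 40.6 and 39.2 FPKM in MAT2A-inhibited embryos and 64.05, 56.1 and 89.0 FPKM in controls. Its log2 fold change was -0.60 over all embryos and -0.28 without MAT2A-inhibited embryos 2 and 3, from MAT2A-inhibited embryo 1 alone. Its autosomal paralog UBE2B was at 291.0, 355.6 and 227.6 FPKM in MAT2A-inhibited embryos and 276.04, 266.1 and 294.8 FPKM in controls (log2 fold change 0.040 ± 0.21 SE). USP11, which is X-linked too and takes part in DNA repair, was at 5.27, 2.40 and 2.98 FPKM in MAT2A-inhibited embryos and 20.7, 2.87 and 4.87 FPKM in controls, with control 1 far above the other 5 embryos.

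Among E2 genes UBE2K had the smallest p. UBE2K, which builds degradative chains, was at 215.0, 197.2 and 205.5 FPKM in MAT2A-inhibited embryos and 151.4, 110.1 and 142.3 FPKM in controls. The MAT2A-inhibited values were close to each other and above every control (log2 fold change 0.62 ± 0.19 SE, limma adjusted p = 0.701). Without each library in turn the log2 fold change ran from 0.48 to 0.71.

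UBE2E1 and UBE2E2, related E2 enzymes on the same stretch of chromosome 27, had fold changes of opposite sign, and neither passed. UBE2E1 (41958078 to 42018578) was at 83.7, 71.9 and 88.5 FPKM in MAT2A-inhibited embryos and 41.3, 43.9 and 63.7 FPKM in controls (log2 fold change 0.72 ± 0.24 SE, limma adjusted p = 0.701). UBE2E2 was at 29.4, 30.7 and 28.9 FPKM in MAT2A-inhibited embryos and 82.07, 40.5 and 52.2 FPKM in controls (log2 fold change -0.89 ± 0.29 SE, limma adjusted p = 0.701). Neither gene had overlapping groups. UBE2E2 is listed at a pair of loci, and they did not move alike. The locus at 42558021 to 42569249 was at 23.1, 25.98 and 18.6 FPKM in MAT2A-inhibited embryos and 71.4, 36.4 and 43.9 FPKM in controls. The locus that starts at 42203436 was at 6.28, 4.75 and 10.2 FPKM in MAT2A-inhibited embryos and 10.6, 4.17 and 8.28 FPKM in controls, with overlap. Their relative UBE2E3, on chromosome 2, was at 92.8, 115.1 and 117.4 FPKM in MAT2A-inhibited embryos and 100.2, 81.3 and 157.4 FPKM in controls.

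UBE2Q1, an E2 with a long N-terminal extension, had the highest log2 fold change of all members, 1.24 ± 0.57 (SE, limma adjusted p = 0.75). It was at 101.2, 17.0 and 42.0 FPKM in MAT2A-inhibited embryos and 16.3, 16.2 and 19.1 FPKM in controls. MAT2A-inhibited embryo 2 lay within the controls, and without MAT2A-inhibited embryo 1 the value was 0.61.

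Among USP genes USP47 had the smallest p and no overlap. USP47, which acts on DNA polymerase beta in base excision repair, was at 19.1, 27.2 and 20.9 FPKM in MAT2A-inhibited embryos and 7.68, 14.7 and 14.9 FPKM in controls (log2 fold change 0.84 ± 0.33 SE, limma adjusted p = 0.746). USP44, a brake on the anaphase-promoting complex, was at 2.28, 1.23 and 2.22 FPKM in MAT2A-inhibited embryos and 0.273, 0.0996 and 1.46 FPKM in controls, where control 3 overlapped (limma adjusted p = 0.746). USP22, of the SAGA coactivator, was at 15.1, 16.6 and 14.2 FPKM in MAT2A-inhibited embryos and 10.9, 8.44 and 14.01 FPKM in controls, without overlap by a narrow margin. USP3, which acts on histone H2A, was at 0.358, 1.81 and 0.912 FPKM in MAT2A-inhibited embryos and 1.88, 1.77 and 2.76 FPKM in controls. USP10, which acts on p53, was at 33.2, 39.3 and 32.1 FPKM in MAT2A-inhibited embryos and 23.3, 34.4 and 21.7 FPKM in controls. USP21 was at 3.54, 4.46 and 14.95 FPKM in MAT2A-inhibited embryos and 4.46, 5.96 and 3.66 FPKM in controls, and USP50 at 1.18, 0.409 and 3.52 FPKM in MAT2A-inhibited embryos and 1.16, 0 and 0 FPKM in controls. MAT2A-inhibited embryo 3 was the highest embryo for USP21 and USP50.

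**Figure D4:**
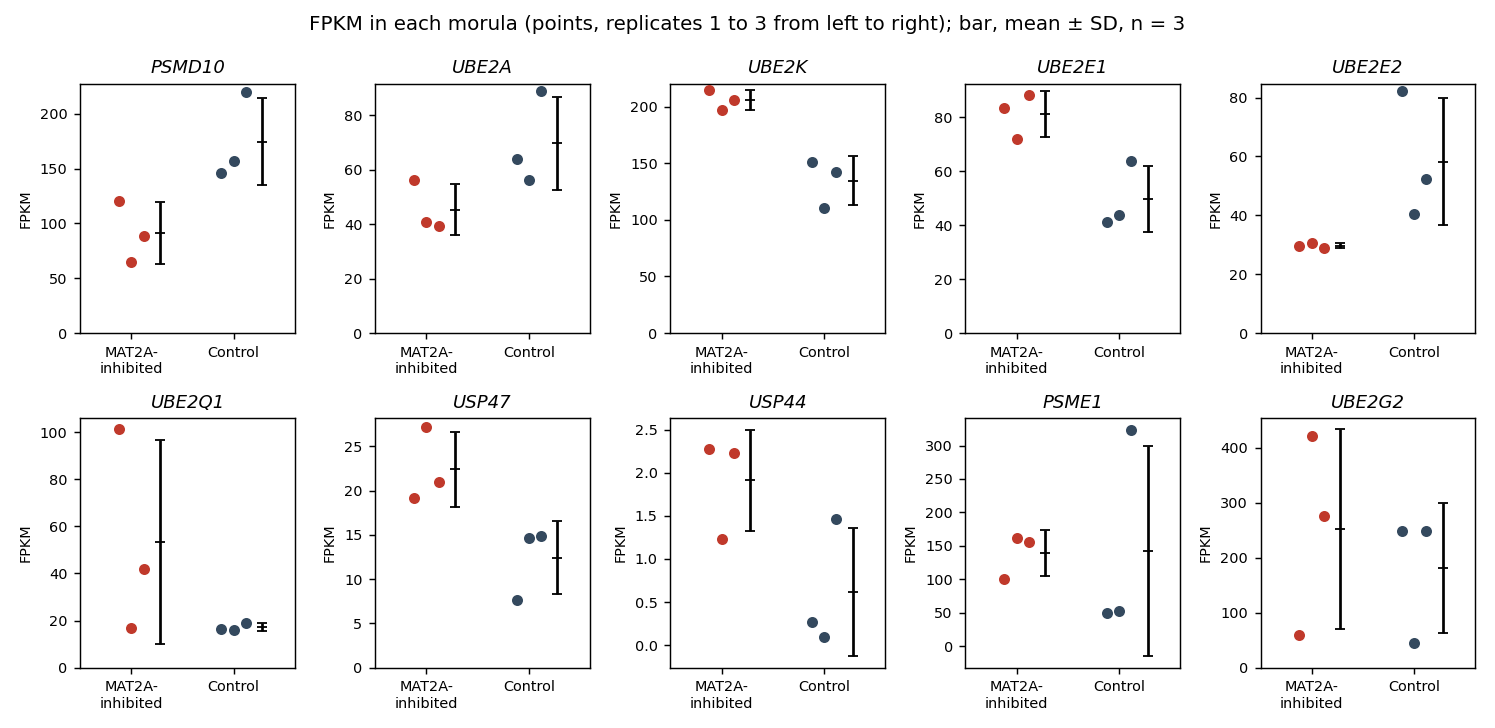
FPKM of 10 members in each morula, MAT2A-inhibited (red, left) and Control (dark, right), with mean ± SD (n = 3 each). The groups do not overlap for PSMD10, UBE2K, UBE2E1, UBE2E2 and USP47, while PSME1 and UBE2G2 vary more within a group than between groups.

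Spread between embryos differed with class and level. From the lowest to the highest of the 6 embryos, the median tested proteasome gene varied 1.57 times, the median E2 gene 1.93 times and the median USP gene 2.44 times, beside 2.48 times for all genes tested. Among genes with a mean of at least 100 FPKM these were 1.46 times for 28 proteasome genes and 1.91 times for 10 E2 genes, beside 1.74 times for all 1150. The 4 non-catalytic beta genes varied 1.23 to 1.36 times, and the activators ran from 4.24 to 6.58 times. UBE2C varied 1.23 times and USP33, a deubiquitinase of membrane compartments, 1.21 times.

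Other genes of the ubiquitin pathway, listed by function, were read from the same fit. Of 68 tested (91 listed), 0 passed in either direction, beside 0.041% of all genes tested. In all, 38 lay above 0 and 30 below, and their median log2 fold change was 0.074. At an unadjusted limma p below 0.05, 2 were higher and 2 lower, or 5.88% against 6.64% of all genes tested. The groups did not overlap for 13 of them, 7 higher and 6 lower, or 19.1% against 13.4% of all genes tested. VCP, the segregase that pulls ubiquitinated proteins out of membranes and complexes, was at 64.8, 55.1 and 74.3 FPKM in MAT2A-inhibited embryos and 44.08, 46.2 and 40.6 FPKM in controls (log2 fold change 0.55, limma adjusted p = 0.746). RAD23B, a shuttle to the proteasome, was at 49.0, 44.6 and 42.1 FPKM in MAT2A-inhibited embryos and 28.9, 20.4 and 38.1 FPKM in controls. ADRM1, a ubiquitin receptor of the proteasome, was at 47.05, 43.4 and 44.1 FPKM in MAT2A-inhibited embryos and 29.8, 39.1 and 19.7 FPKM in controls. The groups did not overlap for these 3 genes. UCHL3, a small deubiquitinase, was at 353.9, 420.1 and 432.4 FPKM in MAT2A-inhibited embryos and 506.1, 625.9 and 639.9 FPKM in controls. The core maturation factor POMP was at 828.6, 2064 and 852.1 FPKM in MAT2A-inhibited embryos and 1512, 927.1 and 1035 FPKM in controls. NFE2L1, which switches on proteasome genes when the proteasome is blocked, was at 5.38, 4.72 and 3.95 FPKM in MAT2A-inhibited embryos and 3.89, 3.46 and 4.65 FPKM in controls. The ubiquitin gene UBB was at 5463, 6759 and 6053 FPKM in MAT2A-inhibited embryos and 7104, 7603 and 6229 FPKM in controls.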

How the data were processed

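Each library has a Cufflinks gene file, deposited by the authors, whose columns per the file headers hold FPKM and its lower and upper bounds. TopHat2 2.0.14, Cufflinks 2.2.1 and the build bosTau8 are named in the submitters' processing notes; the settings and the gene models used are not stated in these sources. FPKM of rows that share a symbol were added up. From 13295 symbols with rows in each of the 6 libraries 13185 were used, without 38 in loci merged with a neighbour and 72 with a status other than OK. An FPKM of 0 can be a failed estimate and is written as listed at 0. Depth was read from the FPKM bounds at unannotated loci (100 to 300 bases long), where 99.8% to 99.9% of values were whole fragments within 0.05. Counts per gene were not recovered, so each error given comes from differences between embryos. Each SE is the limma standard error, whose variance is moderated toward a trend over all genes tested. Each SD is the spread of the embryos of a group. Among libraries, 0% of values were identical.

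The test was limma 3.58.1 (R 4.3.3), two-sided and with its trend option, applied to log2(FPKM + 1) of genes that reached 1 FPKM in 3 libraries or more, with a threshold of 0.05 after Benjamini-Hochberg adjustment over all genes tested. The script was tested on simulated data. No set test was run. The members and lists were chosen with earlier results of these data known. Named with values are, in each class, the 6 tested members with the smallest p, the 5 with the highest mean, members fixed by role, and those that were 0 somewhere and reached 10 FPKM elsewhere (0 members). PSMB4, UBE2E3, UBE2L6, UBE2U, UBE2Z, PSMA4, PSMB11, PSMC2, PSMC3, PSMC6, PSMD3, USP6NL, USP11, USP18, USP33, DPPA3, KRT8 and the other pathway genes with values were named after their values were seen. Positions are 1-based, from control 1. The values of 1 member are not reported here.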

Additional observations from a re-analysis of the deposited data

How the results depend on the processing

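No member passed under any of the 16 alternatives, with a lowest limma adjusted p of 0.386 without control 3. Among all genes tested, 3 were called, 1 with no filter on low values, 1 with a mean of at least 5 FPKM, 0 with no genes listed at 0, and 0 without MAT2A-inhibited replicates 2 and 3. The replicate block called 1 gene and 0 members. The deviations of same-numbered embryos correlated at r = 0.046, 0.103 and 0.191, and those of differently numbered embryos at -0.212 to 0.102. Whether the numbers pair the samples was not tested, and the main fit does not pair them. Leaving out 1 library at a time gave 0 (without each MAT2A-inhibited library) to 8 calls (without control 3). The class medians then ran from 0.039 to 0.086 (proteasome), 0.048 to 0.24 (E2) and 0.025 to 0.23 (USP). The USP median was 0.20 with a pseudocount of 0.1.

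Of 725 refits of 46 named members, 687 kept their direction and 38, of 16 members, turned. With median-of-ratios scaling PSMD4 was at -0.048, UBE2B at -0.018, UBE2D1 at -0.021 and UBE2D3 at -0.004, and PSMD4 was at -0.004 with TPM. Without MAT2A-inhibited replicates 2 and 3, which leaves replicate 1 alone against the controls, PSMB6 was at -0.16, PSMB7 at -0.11, PSMD14 at -0.061, UBE2D3 at -0.31, UBE2G2 at -1.25, UBE2J1 at -0.66, USP15 at 0.085 and USP21 at -0.31. With 1 library left out, ranges crossed 0 for PSMB2 (-0.16 to 0.025), PSMB9 (-0.060 to 0.54), PSMD4 (-0.17 to 0.16), PSME4 (-0.80 to 0.35), UBE2B (-0.12 to 0.21), UBE2D1 (-0.19 to 0.32), UBE2D3 (-0.085 to 0.24), UBE2G2 (-0.39 to 1.26), UBE2J1 (-0.14 to 0.50), UBE2L3 (-0.23 to 0.24), UBE2V2 (-0.42 to 0.080) and USP21 (-0.17 to 0.73). The cause was not tested.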

Other observations

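UBQLN2, an X-linked shuttle that carries ubiquitinated proteins to the proteasome, was at 12.2, 4.33 and 7.88 FPKM in MAT2A-inhibited embryos and 528.3, 17.0 and 659.5 FPKM in controls. Controls 1 and 3 stood far above the other 4 embryos, and control 2 lay close to the MAT2A-inhibited values (log2 fold change -4.43 ± 1.27 SE, limma adjusted p = 0.688). It was named after its values were seen. UBA1, the X-linked main ubiquitin E1, was at 145.1, 21.1 and 25.3 FPKM in MAT2A-inhibited embryos and 35.4, 29.6 and 33.4 FPKM in controls, with MAT2A-inhibited embryo 1 alone above the others.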
